A study of Mus musculus with 8 samples.

Results

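The protein disulfide isomerases and the ER oxidases are the enzymes that put disulfide bonds into secreted proteins inside the endoplasmic reticulum (ER). The set was fixed by name as 10 genes, P4hb, Pdia2, Pdia3, Pdia4, Pdia5, Pdia6, Txndc5, Erp44, Ero1a and Ero1b, among the 22180 genes measured. Of these, 8 had an array row that carried their symbol alone; for Ero1a, which had 2 such rows, the row with the higher mean was used. The row listed for Pdia4 also carries Mir704 and was left out, and Pdia2, the isomerase enriched in pancreas, had no row in the annotation used and was not analysed here, so the comparison of Pdia2 with the rest was not made.

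Total RNA of whole pancreas from C57 BL6 mice was measured on 8 arrays, 4 labelled LmnaWT (WT) and 4 labelled LmnaKO (KO), each group with 3 males and 1 female. All animals, controls included, received tamoxifen by intraperitoneal injection at 3 mg per 40 g, and pancreata were taken 6 days later. The series title places the deletion of Lmna, which encodes the nuclear lamina proteins lamin A and C, in pancreatic acinar cells; the sources used here do not give the Cre driver, the modified allele or the age of the mice. The labels name separate samples without saying that each is a separate animal, so spread here may be technical, and a p-value speaks only of variation among these 8.

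Isomerases carry thioredoxin-like domains whose paired cysteines form, break and reshuffle disulfide bonds in newly made proteins. An oxidised isomerase hands its disulfide to a client, and the ERO1 oxidases oxidise it again by passing the electrons to oxygen, which yields hydrogen peroxide. Acinar cells, which make and export digestive enzymes rich in disulfide bonds, depend heavily on this relay. Mammals have one widely expressed oxidase, Ero1a, and one enriched in secretory tissues such as pancreas, Ero1b.

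In KO pancreas the oxidase Ero1a rose 4.17-fold while its paralog Ero1b fell 1.7-fold. Among the isomerases Pdia3 rose 2.79-fold, Pdia5 2.1-fold and Pdia6 1.52-fold. The founding isomerase P4hb, Txndc5 and Erp44 did not pass the test, with changes of 0.28, 0.22 and 0.21 log2 units. In all, 4 of the 8 measured members were higher and 1 was lower in KO (limma, Benjamini-Hochberg adjusted p under 0.05 over all genes). Over all genes 14.6% were called higher and 6.99% lower. The share called higher depends on the level of a gene: among the 3467 genes with a mean log2 value of at least 5 it was 35.9%, with 4.85% lower. Of the 7 members at such levels 3 were higher (42.9%) and 1 was lower, so the number that rose lies near that background. The groups did not overlap for 6 members, 5 higher and 1 lower in KO, against 15.3% and 12.1% of all genes. Shares without overlap were not computed among genes of a like level, so the 15.3% may be too low a background. The members' median change was 0.44 log2 units, against -0.06 over all genes and 0.44 over the 6264 genes with a mean of at least 4. That mean is taken over all 8 arrays, KO included, so a gene can reach the level through the group where it is high. All 8 members reach it, but Pdia5, at a mean of 3.79 in WT and 4.86 in KO, does so only through its KO values.

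**Figure D1:**
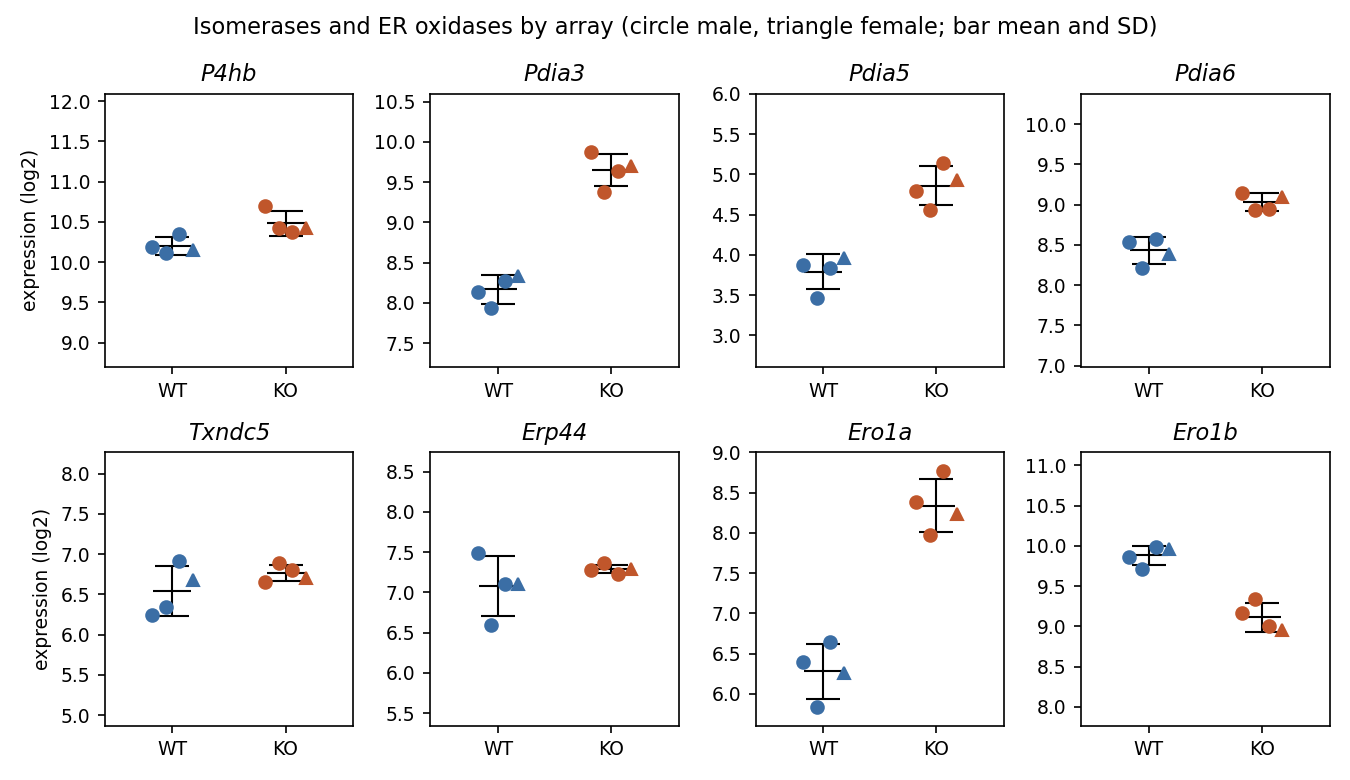
Log2 expression (vertical axis, every panel spanning the same number of log2 units) of each measured gene in the WT and KO arrays; circles are males, triangles females, and bars give the mean and SD of 4 arrays. KO arrays lie above all WT arrays for Ero1a, Pdia3, Pdia5, Pdia6 and P4hb and below them for Ero1b, and the groups overlap for Txndc5 and Erp44.

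Ero1a, the oxidase that is also a known target of the stress transcription factor CHOP and of hypoxia-inducible factor, read 6.39, 5.84, 6.65 and 6.26 across WT arrays 1 to 4 and 8.39, 7.98, 8.77 and 8.24 across KO arrays 1 to 4 (log2 expression). The lowest KO array lay more than 1 log2 unit above the highest WT array. The mean was 6.28 ± 0.34 in WT and 8.34 ± 0.33 in KO (SD, n = 4 per group), a change of 2.06 ± 0.21 (log2, KO minus WT, ± SE, adjusted p = 0.00105). The other Ero1a row, a dimmer one, read 2.61 to 3.62 in WT and 4.25 to 4.96 in KO. It changed by 1.23 ± 0.24 (adjusted p = 0.00993 over 23521 rows), so both rows were higher in KO without overlap. Any transcript shift here was measured in whole pancreas, where a different share of a cell type and a different amount of RNA per cell cannot be told apart.

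Ero1b read 9.86, 9.71, 9.98 and 9.96 across WT arrays 1 to 4 and 9.17, 9.34, 9.0 and 8.95 across KO arrays 1 to 4. All KO arrays lay below all WT arrays. Its mean went from 9.88 ± 0.12 to 9.11 ± 0.18 (SD, n = 4 per group), a change of -0.77 ± 0.13 (adjusted p = 0.00504). In the 6 male arrays alone the change was -0.68 and missed the threshold (adjusted p = 0.0557).

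The divergence of the oxidases was tested within arrays, as the log2 value of Ero1a minus that of Ero1b. This difference was -3.47, -3.87, -3.33 and -3.70 across WT arrays 1 to 4 and -0.78, -1.36, -0.23 and -0.71 across KO arrays 1 to 4. It is not a ratio of transcript amounts, because rows of different genes have different probes. Its shift between genotypes shows that the readings of the 2 rows changed unequally. The 2 Ero1a rows alone changed by 2.06 and 1.23, so the size of a shift holds only for the rows compared. The shift was 2.82 ± 0.26 log2 units (± SE, 95% interval 2.19 to 3.46, exact two-sided permutation p = 0.0286). That is the smallest p that 70 splits of 4 against 4 arrays allow. If replicate numbers pair the arrays, the exact test within pairs gives p = 0.125, its smallest possible value, with the difference higher in KO in 4 of 4 pairs.

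**Figure D2:**
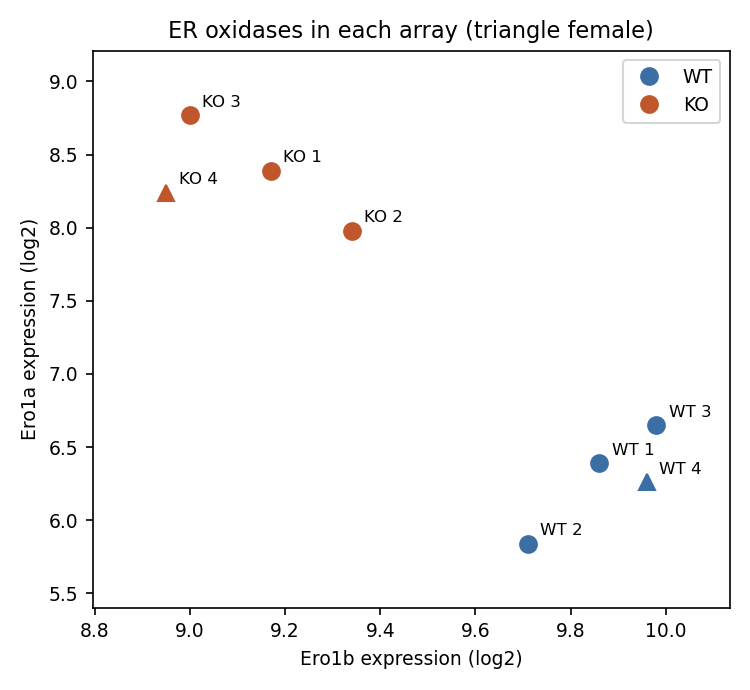
Log2 expression of Ero1a (vertical axis) against Ero1b (horizontal axis), with one labelled point per array, blue for WT and orange for KO, triangles for females. The KO arrays sit at 7.98 to 8.77 for Ero1a and 8.95 to 9.34 for Ero1b, and the WT arrays at 5.84 to 6.65 and 9.71 to 9.98, with no overlap on either axis.

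Of the isomerases, Pdia3 (ERp57), which acts on glycoproteins held by calnexin and calreticulin, had the lowest adjusted p. It read 8.13, 7.93, 8.27 and 8.33 across WT arrays 1 to 4 and 9.87, 9.38, 9.64 and 9.70 across KO arrays 1 to 4. The groups were separated by over 1 log2 unit, with WT 2 and KO 2 the lowest of their groups. The change was 1.48 ± 0.14 (from 8.17 ± 0.18 to 9.65 ± 0.20, SD, n = 4 per group, adjusted p = 0.000889).

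Pdia5, an isomerase with a lesser-known client range, read 3.87, 3.47, 3.84 and 3.96 across WT arrays 1 to 4 and 4.79, 4.56, 5.14 and 4.93 across KO arrays 1 to 4. The highest WT array lay well below the lowest KO array. Its mean went from 3.79 ± 0.22 to 4.86 ± 0.24 (SD, n = 4 per group), a change of 1.07 ± 0.16 (adjusted p = 0.00346). The size of this change depended on scaling, at 0.65 after repeated quantile normalization (adjusted p = 0.0292) and 0.69 after cyclic loess (adjusted p = 0.0141).

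Pdia6 (P5), an isomerase that works with the chaperone BiP, read 8.53, 8.21, 8.57 and 8.39 across WT arrays 1 to 4 and 9.15, 8.93, 8.94 and 9.10 across KO arrays 1 to 4. All KO arrays lay above all WT arrays, by a narrower margin than for Pdia3. The change was 0.61 ± 0.12 (adjusted p = 0.0108). It was 0.41 after repeated quantile normalization (adjusted p = 0.0332), 0.40 after cyclic loess (adjusted p = 0.035) and 0.57 among males only, where it missed the threshold (adjusted p = 0.0847).

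The other members did not pass. P4hb, the first isomerase described and also a subunit of collagen prolyl 4-hydroxylase and of the microsomal triglyceride transfer protein, read 10.19, 10.11, 10.35 and 10.15 across WT arrays 1 to 4 and 10.70, 10.43, 10.38 and 10.42 across KO arrays 1 to 4. The groups did not overlap, though KO 3 and WT 3 lay almost together. Its change was 0.28 ± 0.12 (95% interval 0.01 to 0.55, adjusted p = 0.113). KO 1 stood apart from the other KO arrays, and without it the change was 0.21.

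Txndc5 (ERp46), an isomerase of secretory and endothelial cells, read 6.25, 6.34, 6.91 and 6.68 across WT arrays 1 to 4 and 6.66, 6.89, 6.80 and 6.71 across KO arrays 1 to 4. WT 3 was the highest of all 8 arrays, so the groups overlapped. The change was 0.22 ± 0.16 (95% interval -0.13 to 0.58, adjusted p = 0.313) and turned to -0.16 after repeated quantile normalization and -0.18 after cyclic loess. Erp44, which retrieves ERO1 and unassembled cargo from the early secretory pathway, read 7.49, 6.60, 7.11 and 7.11 across WT arrays 1 to 4 and 7.28, 7.36, 7.23 and 7.29 across KO arrays 1 to 4. The KO arrays lay inside the range of WT. The change was 0.21 ± 0.17 (95% interval -0.18 to 0.60, adjusted p = 0.379), and -0.12 and -0.15 under the same scalings. Leaving out WT 2, the lowest array, brought it to 0.05.

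**Figure D3:**
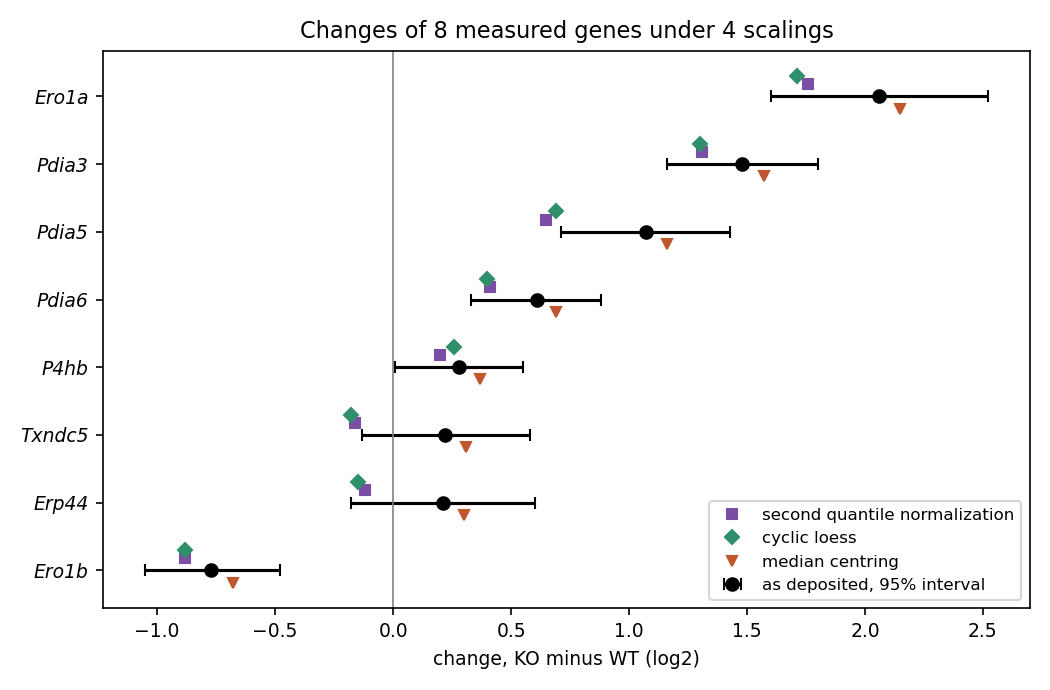
Change of each measured gene, KO minus WT in log2 units (horizontal axis); black points are the deposited values with their 95% interval, and squares, diamonds and triangles give the change after repeated quantile normalization, cyclic loess and median centring. Ero1a, Pdia3, Pdia5, Pdia6 and P4hb stay above 0 and Ero1b stays below 0 under these scalings, while Txndc5 and Erp44 turn negative after repeated quantile normalization and cyclic loess.

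Whether the rows of the members changed by unequal amounts was tested for all 28 pairs. The within-array difference and the exact permutation test were used, a choice made after the values were seen. In 23 pairs the difference of change passed (adjusted exact p = 0.0348 for each, Benjamini-Hochberg over the 28, arrays taken as unpaired). With the arrays paired by number no pair could pass, since the smallest exact p within pairs is 0.125. Ero1a, by its brighter row, rose more than Pdia3 by 0.58 (95% interval 0.12 to 1.03), and Pdia3 more than Pdia5 by 0.41 (0.10 to 0.72). The dimmer Ero1a row changed by 1.23 and the mean of its rows by 1.64, against 1.48 for Pdia3. The place of Ero1a above Pdia3 thus depends on the row used, and rows of 1 gene can change unequally. Pdia5 rose more than Pdia6 by 0.46 (0.10 to 0.83), and the change of Pdia6 exceeded that of P4hb by 0.32 (0.15 to 0.50). Steps among Pdia5, Pdia6 and P4hb were smaller after repeated quantile normalization and cyclic loess, while the step from Pdia3 to Pdia5 was larger. Pdia3, Pdia5, Pdia6 and P4hb changed by 1.31, 0.65, 0.41 and 0.20 after repeated quantile normalization. After cyclic loess they changed by 1.30, 0.69, 0.40 and 0.26. Under each of these scalings 20 of the 28 pairs passed. Ero1b differed from each of the 7 other members, by 0.98 for Erp44 at the least. The changes of Pdia6 and Txndc5 (0.38, 95% interval -0.05 to 0.81, adjusted exact p = 0.096) and of Pdia6 and Erp44 (0.39, 0.05 to 0.74, adjusted exact p = 0.0667) did not pass as different. Neither did those among P4hb, Txndc5 and Erp44, where P4hb minus Txndc5 was 0.06 (-0.35 to 0.47), P4hb minus Erp44 0.07 (-0.39 to 0.53) and Txndc5 minus Erp44 0.01 (-0.59 to 0.62).

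Within the control group, WT 2 held the lowest reading in 7 of the 8 members, and over the genes with a mean of at least 5 it was the lowest WT array for 67.8%. WT 3 held the highest reading in 5 members, against 24.8% of those genes. Among KO arrays KO 2 was the lowest for 4 members, against 42.1% of those genes. Each member call, 4 higher and 1 lower, was kept when any 1 array was left out.

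Promoters of the members are shown because regulators of ER folding genes bind short elements there, and because the paralogs Ero1a and Ero1b moved in opposite directions. The RefSeq windows (GRCm38.p6, 250 bases before to 50 after a start) covered all 10 members with 13 windows. The elements searched on both strands were the ER stress response element ERSE, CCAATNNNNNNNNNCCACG, its variant ERSE-II, ATTGGNCCACG, the UPRE core TGACGTGG, the CHOP and ATF4 composite TTGCATCA, and GACGTG, a form of the hypoxia response element that also lies inside the UPRE core. The 3 windows below are those of Pdia6 (chr12:17266339-17266638, plus strand), Ero1b (chr13:12565633-12565932, plus strand) and Ero1a (chr14:45318523-45318822, minus strand), each 5′ to 3′ along its gene. Capitals mark a complete ERSE in Pdia6 and Ero1b, and GACGTG or its reverse complement in Pdia6 and Ero1a.
Pdia6: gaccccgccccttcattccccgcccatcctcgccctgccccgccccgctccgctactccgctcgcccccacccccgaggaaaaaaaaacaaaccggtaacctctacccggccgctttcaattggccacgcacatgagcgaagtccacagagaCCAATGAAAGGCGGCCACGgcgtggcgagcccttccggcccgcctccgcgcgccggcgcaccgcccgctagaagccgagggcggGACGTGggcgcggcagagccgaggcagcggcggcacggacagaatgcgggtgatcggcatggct
Ero1b: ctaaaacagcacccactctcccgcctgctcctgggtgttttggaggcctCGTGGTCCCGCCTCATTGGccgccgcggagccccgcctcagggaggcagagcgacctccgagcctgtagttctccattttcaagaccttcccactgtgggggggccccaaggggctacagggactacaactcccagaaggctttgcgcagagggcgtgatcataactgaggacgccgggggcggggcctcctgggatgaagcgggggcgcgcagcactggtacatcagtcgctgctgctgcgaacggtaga
Ero1a: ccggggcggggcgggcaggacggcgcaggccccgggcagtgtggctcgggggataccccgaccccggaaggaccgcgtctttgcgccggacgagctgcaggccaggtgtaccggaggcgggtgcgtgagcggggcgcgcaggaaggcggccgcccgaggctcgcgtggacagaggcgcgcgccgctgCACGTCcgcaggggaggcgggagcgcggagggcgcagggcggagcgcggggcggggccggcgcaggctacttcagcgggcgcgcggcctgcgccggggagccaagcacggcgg

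A complete ERSE was found in 39 of 32851 RefSeq promoter windows (0.119%), and these include the windows of Pdia6, which rose, and Ero1b, which fell. In Pdia6 it covers positions 153 to 171 of the window, on the strand of the gene. In Ero1b it covers positions 50 to 68, on the opposite strand. The Ero1a window holds neither ERSE nor ERSE-II. It holds GACGTG on the opposite strand, at positions 188 to 193, as do 6.38% of windows on either strand. GACGTG also occurred in windows of P4hb, Pdia5, Pdia6, Txndc5 and Erp44, genes that rose and genes that did not pass. The UPRE core was found in 1 member window, of Txndc5 (0.676% of all windows), and ERSE-II and the CHOP and ATF4 composite in none (0.0365% and 0.895% of all windows). The 3′ part of ERSE alone, CCACG, lies in 32.8% of windows and in 11 of the 13 member windows. Those 13 are not independent, since Txndc5 and Erp44 have several windows each and those of Erp44 overlap and hold the same match. The Pdia3 window holds none of the elements searched. These matches describe letters and not binding.

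Around the members, 55 of 56 listed genes of ER folding were measured, and 24 were higher and 5 lower in KO. The share called higher, 24 of 55, is to be read against the 14.6% of all genes and the 35.9% of genes at a mean of at least 5. After repeated quantile normalization 11 of the 55 were higher and 6 lower, when 4.65% of all genes were higher and 5.66% lower. After cyclic loess the counts were 12 and 6, when the shares of all genes were 6.11% and 5.69%. Shares among genes of a like level were not computed under these scalings, so the all-gene shares may be too low a background. The medians by role below are to be read against the 0.44 of genes with a mean of at least 4 as well as the -0.06 of all genes. Only 39 of the 55 genes reach that level. Every list but the regulators holds genes below it, so neither value is a background of like level for those lists.

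Among other ER proteins with thioredoxin folds, 6 of 16 rose and 3 fell (median 0.29). Creld2, an ER stress protein with isomerase activity, read 7.99 to 8.65 in WT and 9.74 to 10.17 in KO, a change of 1.68 ± 0.17 (adjusted p = 0.000964). Dnajc10 (ERdj5), a reductase that opens disulfides of misfolded proteins before their degradation, rose by 0.99 ± 0.16 (adjusted p = 0.00414). Erp27, a pancreas-rich family member that lacks the catalytic cysteines and binds Pdia3, went the other way. It read 8.32 to 8.99 in WT and 6.97 to 7.93 in KO, a change of -1.18 ± 0.22 (adjusted p = 0.00713), although it missed the threshold among males only (-1.23, adjusted p = 0.0549). Tmx3, a membrane-bound isomerase, rose by 0.96 ± 0.19 (adjusted p = 0.00987), but the call was lost after repeated quantile normalization (0.48), cyclic loess (0.52) and among males only (0.92).

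Of the 10 other genes of oxidation and peroxide handling, 2 rose and 2 fell (median 0.13). Qsox1, a sulfhydryl oxidase that makes disulfides independently of ERO1, read 7.49 to 7.90 in WT and 6.67 to 7.20 in KO, a change of -0.80 ± 0.15 (adjusted p = 0.00775; -0.80 and adjusted p = 0.0603 among males only). Prdx4, the peroxiredoxin that consumes the peroxide of ERO1 and passes its oxidation to isomerases, changed by -0.68 ± 0.18 (adjusted p = 0.0269). That call was lost under 7 of its alternatives, among them median centring (-0.60) and males only (-0.63). It was kept after repeated quantile normalization (-1.15, adjusted p = 0.0023) and cyclic loess (-1.13, adjusted p = 0.00198), with larger changes. The ER peroxidase Gpx8 rose by 0.80 ± 0.17 (adjusted p = 0.0114) and the vitamin K epoxide reductase paralog Vkorc1l1 by 0.69 ± 0.14 (adjusted p = 0.0111). For both the call was lost after repeated quantile normalization (0.31 and 0.21), cyclic loess (0.36 and 0.25) and among males only (0.59 and 0.69).

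Of 18 partners and clients, 10 rose and 0 fell (median 0.77). The lectin chaperone calreticulin, Calr, which presents glycoproteins to Pdia3, read 8.89 to 9.33 in WT and 10.18 to 10.56 in KO, a change of 1.29 ± 0.14 (adjusted p = 0.00125). Its membrane-bound counterpart Canx rose by 0.46 ± 0.13 (adjusted p = 0.0336), a call lost under 8 alternatives. The chaperones Hspa5 (BiP, 1.65 ± 0.23, adjusted p = 0.00254) and Hsp90b1 (1.77 ± 0.15, adjusted p = 0.000695) rose, as did the secreted hormone Fgf21 (2.96 ± 0.41, adjusted p = 0.00249). Fgf21 is counted among the 10 that rose, and whether it is a client of the isomerases was not tested. The list was chosen with earlier results of these data known. The prolyl hydroxylase subunits that pair with P4hb did not pass, at 0.86 ± 0.33 for P4ha1 (adjusted p = 0.0897) and 0.05 ± 0.13 for P4ha2 (adjusted p = 0.777).

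Of 11 regulators 6 rose and 0 fell (median 0.55). Ddit3, which encodes CHOP, changed by 4.64 ± 0.31 (adjusted p = 0.000298). The oxidative stress factor Nfe2l2 (NRF2) read 5.14 to 5.71 in WT and 6.70 to 7.22 in KO, a change of 1.54 ± 0.16 (adjusted p = 0.00115). Hif1a, the hypoxia-inducible factor, rose by 0.80 ± 0.17 (adjusted p = 0.0126), a call lost under 4 alternatives, among them repeated quantile normalization (0.35) and cyclic loess (0.37). Nfe2l1, a related factor, rose by 0.55 ± 0.12 (adjusted p = 0.0114), with the call lost under the same scalings (0.07 and 0.11). The transcription factors Xbp1 (-0.17 ± 0.19, adjusted p = 0.534) and Atf6 (0.67 ± 0.27, adjusted p = 0.0996), which switch on ER folding genes, did not pass at the level of total transcript. Splicing of Xbp1 and cleavage of ATF6 were not measured by these rows.

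**Figure D4:**
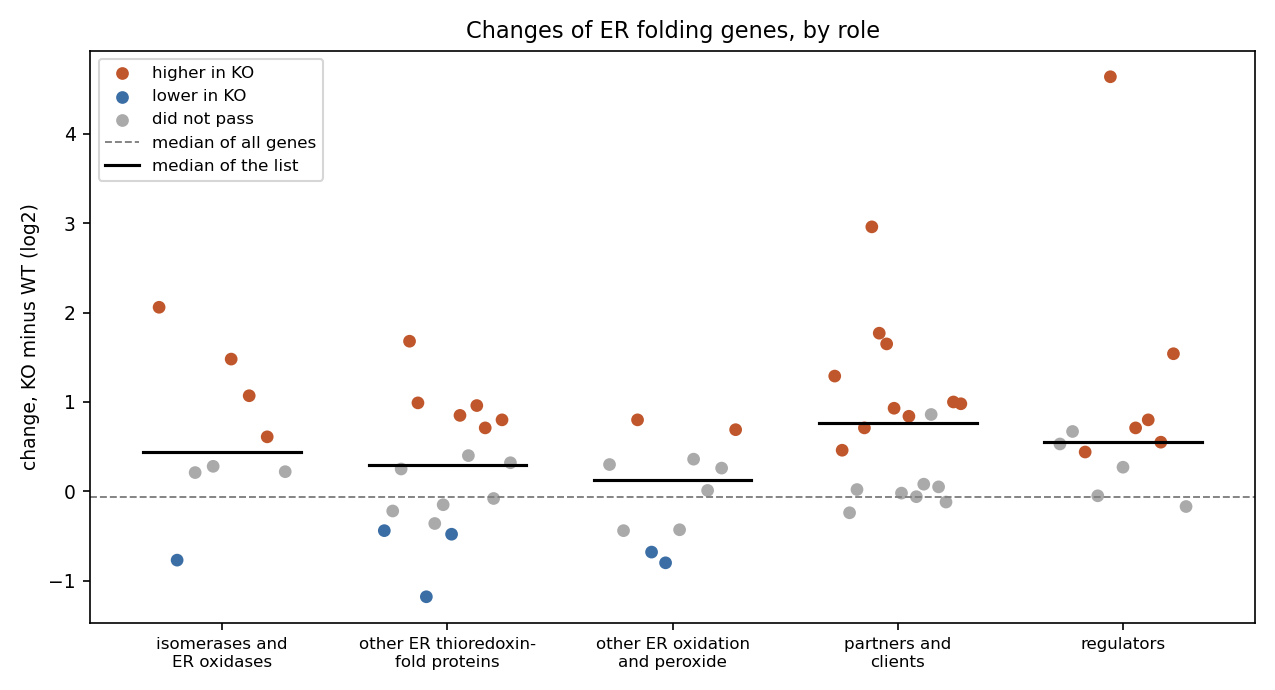
Change of each gene, KO minus WT in log2 units (vertical axis), for the 8 measured isomerases and oxidases and for the other ER folding genes by role; orange points passed as higher, blue points as lower and grey points did not pass, black bars are list medians and the dashed line is the median of all genes (-0.06; it is 0.44 over genes with a mean of at least 4). The partners and clients, at a median of 0.77, and the regulators, at 0.55, hold no gene called lower.

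The genes whose values followed those of the oxidases most closely over the 8 arrays were named by Pearson correlation among the 3356 genes with a mean of at least 5 that remained after leaving out the members, predicted and Rik-named genes, small RNAs and antigen receptor segments. These correlations are descriptions, since all arrays share the step between genotypes. For Ero1a they were Sec11a (r = 0.992), a signal peptidase subunit, Golim4 (0.990), a Golgi protein, Ephx1 (0.989), the microsomal epoxide hydrolase, and Gpr107 (0.988). For Ero1b they were the corepressor Tle5 (0.990), Susd2 (0.976), the chromatin remodelling subunit Smarcc2 (0.969) and the pancreatic phospholipase Pla2g1b (0.969). Ephx1 rose by 2.14 ± 0.23 (adjusted p = 0.00135) and Pla2g1b changed by -0.51 ± 0.11 (adjusted p = 0.0136).

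Markers of cell types were set beside these results. Counts of markers called are to be read against the 14.6% of all genes called higher and the 6.99% called lower. Among genes with a mean of at least 5 these shares were 35.9% and 4.85%. The acinar identity of the tissue was borne out by Ctrb1 (12.28 to 12.41 in all arrays) and Cpa1 (11.97 to 12.37). Of 8 measured acinar markers 0 were higher and 3 lower, Amy2b (-1.89 ± 0.14, adjusted p = 0.000437), Rbpjl (-1.60 ± 0.17, adjusted p = 0.00126) and Bhlha15 (-1.42 ± 0.12, adjusted p = 0.00057). Their list mean was 9.88 to 10.07 in WT and 9.19 to 9.39 in KO, without overlap. The list median was -0.18, and the other 5 markers, from -0.22 for Cpb1 to 0.03 for Ptf1a, did not pass, though the groups did not overlap for Cpb1. Of these, Ctrb1, Cpa1, Cpb1 and Cel had WT means of 12.37, 12.24, 12.13 and 11.96, near the highest deposited value of 12.47. Rows so near the top of the scale can say little about the size of a change. Islet beta cells also express Ero1b, and of 9 beta cell markers 0 were higher and 1, Mafa, was lower. Most of these rows read low, with Ins2 at a mean of 3.37 in WT and 3.47 in KO and Mafa at 3.39 and 2.62. The median of all rows was 2.22 to 2.33 in WT arrays and 2.13 to 2.17 in KO arrays. Such rows can say little about the share of beta cells, which was not tested. The beta list mean overlapped (2.76 to 3.58 in WT, 2.84 to 3.68 in KO), and so did that of 7 other islet markers (4.74 to 5.81 and 4.65 to 6.20).

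Macrophage markers were higher for 3 of 10 genes (list mean 3.86 to 5.63 in WT, 5.22 to 6.88 in KO) and stellate and fibroblast markers for 1 of 8 (4.75 to 6.00 and 5.30 to 7.17). Both counts are to be read against the 14.6% of all genes called higher and the 35.9% at a mean of at least 5. Plasma cells are rich in ER, and of the markers of plasma and B cells 0 of 7 were called (2.15 to 3.10 and 1.96 to 4.07). Several of these rows read low, such as Tnfrsf17 at a mean of 1.38 in WT and 1.29 in KO and Mzb1 at 2.49 and 2.14. Of 6 duct markers 1 was higher and 1 lower (4.35 to 4.75 and 4.22 to 4.51), and of 7 endothelial markers 0 were called (4.08 to 4.45 and 3.70 to 4.71). The part of these cell types in the changes of the isomerases and oxidases was not tested.

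Over the whole series, limma called 3241 genes higher and 1551 lower in KO, so 67.6% of calls were higher. That share was 45.1% after repeated quantile normalization, 51.8% after cyclic loess, 82.1% after median centring and 84.2% among males only. The interquartile range of values was 2.45 to 2.65 in KO arrays and 2.06 to 2.20 in WT arrays. Lmna itself read 2.54 to 3.13 in WT and 2.33 to 2.73 in KO, a change of -0.24 ± 0.15 (adjusted p = 0.264). Where its probes lie relative to the deleted part is unknown here, so this row cannot check the labels.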

How the data were processed

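Expression was measured in 4 WT and 4 KO mouse pancreas samples on whole-transcript arrays, from 100 ng of total RNA per the labels. The authors deposited 1 table of 41345 rows with log2 expression values (0.044 to 12.47); per the submitters' processing notes the tools were RMA, oligo and limma, versions unstated, and the log base was read from the range. RMA commonly subtracts background, brings arrays to a common distribution and merges the probes of a row. The deposited columns do not share 1 distribution, with interquartile ranges of 2.06 to 2.20 in WT and 2.45 to 2.65 in KO. The sources used here give neither signal over background nor scan batches; the number of arrays limits the precision.

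Rows were named through the platform annotation: 23521 (56.9%) had 1 symbol, 1814 several and 16010 none, and only the first were used. Of these, 23328 matched a RefSeq gene of GRCm38.p6 by Entrez identifier, which changed 0 symbols. The brightest row per gene was kept, giving 22180 genes with no filter. All columns were mapped. Genotype was fitted with limma 3.58.1 in R 4.3.3 (lmFit, eBayes) over all genes, with Benjamini-Hochberg adjustment and a threshold of 0.05. Differences of change between members used exact two-sided permutation of the arrays. Named genes were all members, the 4 genes of smallest p in each other list, fixed partners, and the 4 genes most correlated with each oxidase. The members and lists were chosen with earlier results of these data known. The pairs of members other than the oxidases were compared after seeing the data.

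Replicate numbers 1 to 4 appear in both groups. After subtracting group means, arrays with one number correlated across genes at 0.263, 0.165, 0.110 and 0.138. All exceed 0.1, the level set for taking numbers as pairs, although 2 of the other 12 combinations also exceeded 0.1 and no label mentions a common litter or day. The reported fit and the exact tests take the arrays as unpaired, and the paired fit is the replicate block among the alternatives. On simulated data of 22180 genes, the KO against WT fit called 81% of genes shifted by 1 log2 unit and 100% of those shifted by 2. Of its calls 5.24% were unchanged genes. The simulation shifted only a small part of the genes and gave each gene independent noise, with no offset shared by an array. The real fit called 3241 genes higher and 1551 lower, so these rates need not hold for it. Alternatives were repeated quantile normalization, cyclic loess, median centring, males only, sex as a term, the replicate block, leaving out arrays singly, trend with robust eBayes, array weights, a mean of at least 4, the mean of a gene's rows, and all rows tested.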

Additional observations from a re-analysis of the deposited data

Results flagged for a closer look

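One reading stood apart from its group. P4hb in KO 1 read 10.70, while KO 2 to KO 4 lay between 10.38 and 10.43, and its gap to the nearest array was 0.833 of the group's range, which is just above Dixon's 95% critical value for 4 samples. This was 1 of 18 groups of 4 values tested, and chance flags about 1 in 20. Without KO 1 the change of P4hb was 0.21 and did not pass the test, as in the full set.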

How the results depend on the processing

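Ero1a (1.64 to 2.18), Pdia3 (1.30 to 1.57) and Pdia5 (0.65 to 1.17) kept their direction and call under all 19 alternatives. Pdia6 (0.40 to 0.69) and Ero1b (-0.88 to -0.68) did so under 18 of 19, losing the call among males only (0.57 and -0.68), where 0 members were lower and 3 higher; that fit has fewer samples. P4hb stayed uncalled at 0.20 to 0.37. Txndc5 and Erp44, uncalled throughout, reversed after repeated quantile normalization (-0.16 and -0.12) and cyclic loess (-0.18 and -0.15); the cause was not tested. The shift of Ero1a against Ero1b ran from 2.41 to 3.02 over 15 alternatives, and 20 to 23 pairs of members differed under the scalings and rows tried.

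Leaving out 1 array gave 4 members higher and 1 lower each time. The changes then ran from 1.91 to 2.18 for Ero1a, -0.84 to -0.71 for Ero1b, 1.40 to 1.57 for Pdia3, 0.96 to 1.17 for Pdia5, 0.53 to 0.65 for Pdia6, 0.21 to 0.33 for P4hb, 0.12 to 0.34 for Txndc5 and 0.05 to 0.35 for Erp44.

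With the replicate block the changes were the same to 2 decimals (2.06 for Ero1a, -0.77 for Ero1b) and no call on a member changed; 24 other ER folding genes were higher and 4 lower. Those genes numbered 11 higher after repeated quantile normalization, 12 after cyclic loess and 11 among males only, against 24. The share of all genes called higher was then 4.65%, 6.11% and 3.47%, against 14.6%. Shares among genes of a like level were not computed for these settings. The 5 lower ones became 2 after median centring, 3 with sex as a term and 0 among males only. Leaving out 1 array gave 19 to 25 higher and 2 to 4 lower, with 3 lower without WT 2 or WT 3 and 2 without WT 4, KO 2, KO 3 or KO 4; the cause was not tested. The planned contrast of Pdia2 could not be run.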

Other observations

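P4ha1, the catalytic prolyl hydroxylase subunit that pairs with P4hb, split the KO arrays. It read 4.88 and 4.93 in KO 1 and KO 3 but 6.10 and 6.14 in KO 2 and KO 4, against 4.16 to 5.19 in WT. The J chain of secreted antibodies, Jchain, was also highest in KO 2 (7.29) and KO 4 (5.27), against 2.40 and 2.83 in KO 1 and KO 3. The macrophage marker Itgam read 7.78 and 7.42 in KO 2 and KO 4 and 4.56 and 5.79 in KO 1 and KO 3, and the macrophage marker Cd14 5.83 and 5.99 against 3.64 and 4.22. The fibroblast marker Pdgfra read 7.54 and 6.92 against 4.97 and 5.69. Many markers of these lists did not follow. C1qb (7.55), C1qa (6.09), Lum (5.94) and Sdc1 (3.58) were highest of the KO arrays in KO 3. Csf1r, Col1a1, Col3a1 and Pdgfrb read 6.10, 7.42, 7.66 and 4.10 in KO 3, above their 6.06, 6.90, 7.60 and 3.79 in KO 4. The rest of the macrophage and the stellate and fibroblast lists read higher in KO 2 and KO 4 than in KO 1 and KO 3. These genes were picked out after their values were seen, and the part of those cells in the P4ha1 values was not tested.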
